A study of Homo sapiens with 5 samples.

Results

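Plasma membrane repair genes were described in 5 RNA libraries of the human cell line MDA-MB-231, grown from a triple-negative breast cancer. The set held 9 of the 10596 genes in the table used here: MYOF, DYSF, EHD1, EHD2, EHD4, ANXA2, S100A10, S100A11 and PTRF. Each was found by its symbol and taken as its transcript row with the highest mean over the libraries. The set was selected on earlier results of these same data, in which MYOF was among the lowest genes of the SET siRNA library, so every ratio below is a description with no test. There was 1 library per group: siSET (siRNA against SET), siCIP2A (siRNA against CIP2A), siNT (control siRNA), OP449 (1 µM of the SET antagonist OP449) and PBS (the PBS control). The siRNA exposure lasted 48 hours per the labels' protocols, although the siCIP2A label itself gives no time, and the OP449 and PBS exposures lasted 12 hours. SET and CIP2A are inhibitors of the phosphatase PP2A. All groups are the same cell line, so the values carry no information on other breast cancer cells.

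A tear in the plasma membrane lets calcium into the cell, and calcium-binding proteins then bring membrane to the wound. Ferlins, which carry several C2 domains that bind calcium and phospholipid, take part in fusing vesicles with the damaged membrane. Annexins and their S100 partners bind and link membranes, EHD proteins are ATPases that shape and recycle endocytic membrane, and cavins coat caveolae, the small membrane pits that flatten under tension. Myoferlin, first known from muscle cells, has been studied in triple-negative breast cancer cells for its part in invasion.

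The libraries held 3641329 recovered reads over all genes in siSET, the shallowest, and 4762701 to 5602224 in the other 4. Values are scaled counts, which are reads per transcript on a scale common to the libraries, and a read was worth 1.10 to 1.71 of them. Of the line's own genes, VIM, CD44 and AXL stood at 13820 to 20866 scaled counts in every library. PGR was at 0 reads in every library, and CDH1 stood at 12.9 to 56.7. KRT19 and ERBB2, listed as luminal genes, were measured at 4275 to 5998 and 1049 to 1179. EPCAM and GATA3, of the same list, stood at 139 to 282 and 133 to 250. The 7 measured genes of leukocytes, endothelium and muscle summed to 5.13 in siSET, 5.52 in siCIP2A, 9.48 in siNT, 15.5 in OP449 and 6.80 in PBS, with MYH2 at 0 reads in all 5. The part of these low levels in the results was not tested. Brackets hold 95% exact counting intervals of a log2 ratio between 2 libraries, which cover neither variation between cultures nor loss of cells, and in bulk RNA fewer cells expressing a gene and less RNA per cell cannot be told apart. Log2 folds are on log2(scaled counts + 1).

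The upstream sequences of MYOF and DYSF are shown because these are the ferlins measured and stood on opposite sides of siNT in siSET. Both are the 250 bases before the gene's start in RefSeq on GRCh38.p14, read 5′ to 3′ on the gene's strand, with matches to the GC box GGGCGG on either strand in capitals. MYOF lies on the minus strand (chr10:93482335-93482584) and DYSF on the plus strand (chr2:71453311-71453560). By GENCODE on the same build, the transcript whose levels are reported starts 0.14 kb past the window for MYOF but 13.1 kb past it for DYSF, so the DYSF window precedes another start of the gene.
MYOF: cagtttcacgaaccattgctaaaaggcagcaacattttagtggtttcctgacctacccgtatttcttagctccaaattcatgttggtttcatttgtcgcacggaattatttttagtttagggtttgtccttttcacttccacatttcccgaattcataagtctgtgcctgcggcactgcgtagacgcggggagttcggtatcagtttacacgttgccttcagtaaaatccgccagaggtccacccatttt
DYSF: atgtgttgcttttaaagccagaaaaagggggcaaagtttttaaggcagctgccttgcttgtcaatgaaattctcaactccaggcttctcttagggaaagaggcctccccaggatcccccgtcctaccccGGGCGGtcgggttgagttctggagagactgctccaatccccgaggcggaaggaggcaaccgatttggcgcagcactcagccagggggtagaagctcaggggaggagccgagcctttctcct
The MYOF window was 44.4% G and C and the DYSF window 56.4%, against a median of 58.0% over 35116 such windows. MYOF held no GC box and DYSF held 1, which starts 121 bases before the gene's start, while 42.6% of all windows held one. Neither held the E-box CACGTG, the sequence bound by MYC with MAX, which 6.34% of all windows held, or the AP-1 motif TGANTCA, which 6.57% held. Of the 9 members, 8 matched the promoter table, with 2 windows for EHD1. None of these 9 windows held the E-box, and only the ANXA2 window held the AP-1 motif. The GC box was in 7 of the 9. By GENCODE, the transcript used started inside the window for EHD2, EHD4 and S100A11 and for 1 window of EHD1. It started 0.97 kb past the other EHD1 window, while the S100A10 window lay past the start of its transcript. All motifs were searched on both strands, and the GC box of DYSF was the only match in the windows printed, so no matches overlap there. No measurement of this study was made at these windows, and a match or its absence says nothing about binding.

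MYOF, the gene of myoferlin, stood at 2270 scaled counts in siSET, 8996 in siCIP2A, 7779 in siNT, 6713 in OP449 and 7224 in PBS. The siSET library stood apart from the other 4, which lay within 1.34-fold of each other. These values rest on 1327 reads in siSET and on 5211 to 8147 in the others. MYOF was 3.43-fold lower in siSET than in siNT, at -1.78 [-1.86 to -1.69], the fifth lowest of 6084 genes whose 2 libraries averaged 50 or more. Of those genes, 0.789% were at least 2-fold lower in siSET than in siNT. Against PBS the log2 fold was -1.67 [-1.76 to -1.58], the lowest of 6084 genes. Against siCIP2A it was -1.99 [-2.07 to -1.90], with 1.67% of 6098 genes at least 2-fold apart in either direction. The 3 comparisons share the siSET library and are not independent of each other.

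MYOF was at least 2-fold lower in siSET than in each of the other 4 libraries, which held for 11 of the 6093 genes whose 5 values averaged 50 or more (0.181%). Its next lowest library, OP449, was 2.96-fold above siSET, and 2 genes had a larger gap of this kind. The other 10 include FAM96A and KIAA0494, whose values are given with the genes of nearest pattern. They also include C14orf49 and TFAP2E, which averaged 50 or more only through the other libraries. In siSET these stood at 35.9 and 18.8 scaled counts. The mean of MYOF over the 5 libraries was 6597 scaled counts, while those of the other 10 reached at most 1362. No other membrane repair gene was among the 11.

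**Figure D1:**
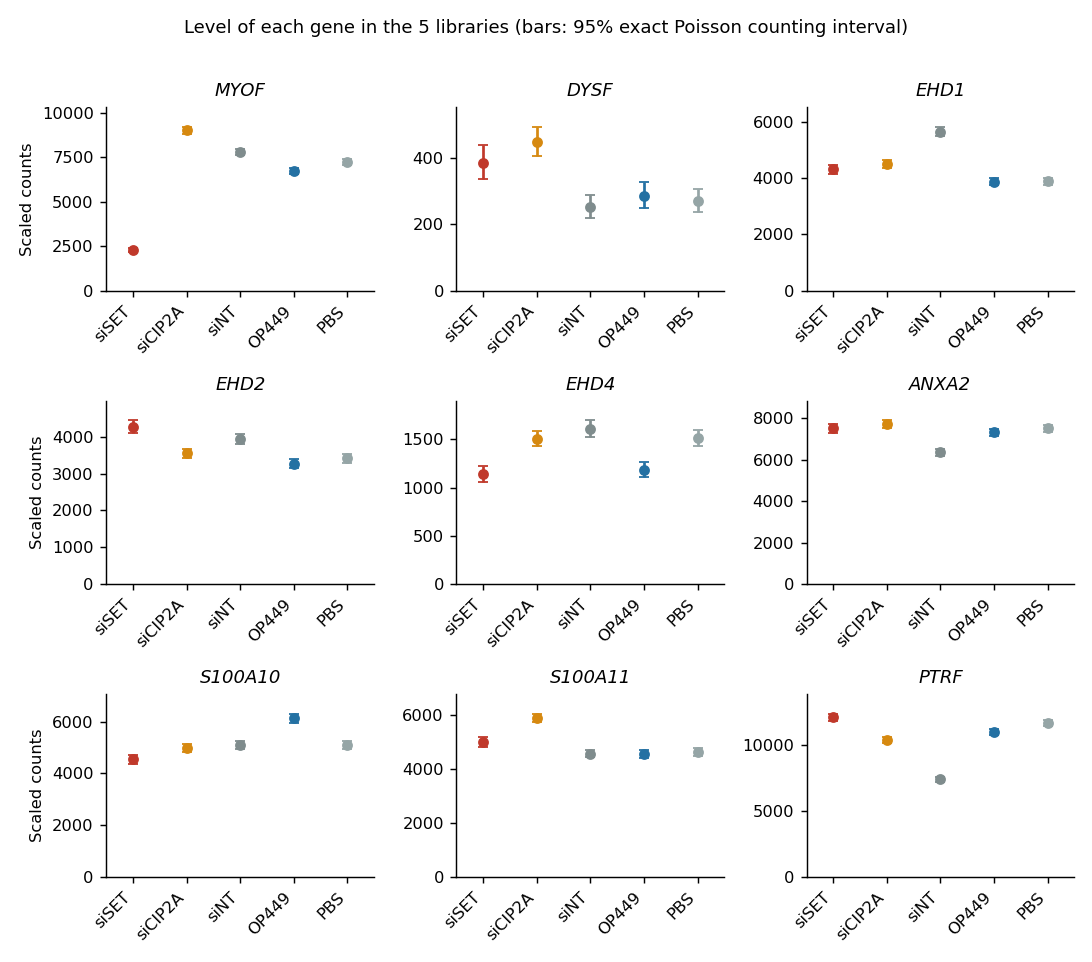
Level of each membrane repair gene in scaled counts (vertical axes, from 0, a scale of its own for each gene) in the 5 libraries, with 95% exact Poisson counting intervals as bars. MYOF stood at 2270 in siSET and at 6713 to 8996 elsewhere, while PTRF was lowest and EHD1 highest in siNT.

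Outside siSET, MYOF differed by at most 1.34-fold. In siCIP2A it was 1.16-fold above siNT, at 0.21 [0.16 to 0.26], and 1.25-fold above PBS, at 0.32 [0.27 to 0.36]. In OP449 it was 1.08-fold below PBS, at -0.11 [-0.16 to -0.05], and siNT was 1.08-fold above PBS, at 0.11 [0.06 to 0.16]. Each step in the order of its levels, which from high to low was siCIP2A, siNT, PBS, OP449 and siSET, exceeded the counting error. The table has 2 rows for MYOF, isoforms a and b, with equal values in every library, so the isoforms cannot be told apart. On hg19 the transcript spans chromosome 10 from 95066187 to 95242074 on the minus strand, and no other gene of the table overlaps it.

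The nearest genes along the chromosome that passed the same floor were CEP55, a midbody protein needed for cell division, 14.3 kb away, and EXOC6, a subunit of the exocyst, 247 kb away on the other side. CEP55 stood at 1531 in siSET against 1765 in siNT, a log2 fold of -0.20. EXOC6 stood at 204 in siSET against 248 in siNT, a log2 fold of -0.28. Beyond them, HHEX stood at 0.00 and C10orf4 at 0.20. Against PBS the nearest genes were lower, with CEP55 at -0.66 and EXOC6 at -0.53, while HHEX stood at -0.15 and C10orf4 at 0.16. None of these 4 neighbours reached the 2-fold threshold that MYOF passed against either control.

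**Figure D2:**
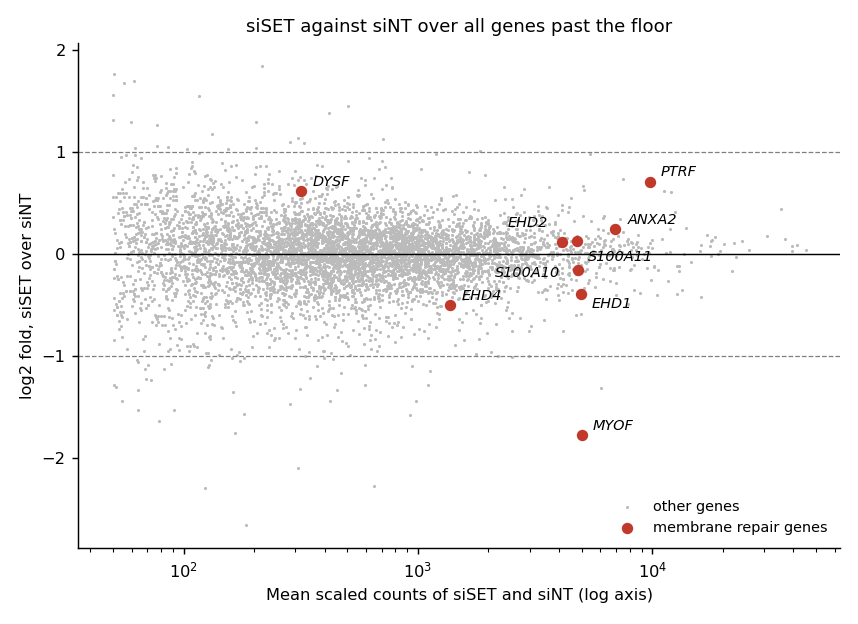
Log2 fold of siSET over siNT (vertical axis) against the mean of both libraries in scaled counts (log axis) for 6084 genes, with the 9 membrane repair genes in red and dashed lines at 2-fold. MYOF, at -1.78, is the only red point beyond a dashed line.

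DYSF encodes dysferlin, the ferlin whose loss causes a limb-girdle muscular dystrophy. It stood at 385 scaled counts in siSET, 447 in siCIP2A, 251 in siNT, 286 in OP449 and 270 in PBS, from 212 to 405 reads. Both targeting siRNA libraries were above the other 3. In siSET it was 1.53-fold above siNT, at 0.61 [0.34 to 0.89], and 1.43-fold above PBS, at 0.51 [0.24 to 0.78]. In siCIP2A it was 1.78-fold above siNT, at 0.83 [0.59 to 1.08], and 1.66-fold above PBS, at 0.73 [0.49 to 0.97]. The level in siSET and that in siCIP2A did not differ beyond counting error, at -0.22 [-0.46 to 0.02], nor did those in OP449, PBS and siNT between neighbours in the order. OP449 stood at 0.08 [-0.19 to 0.35] against PBS.

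The table has 14 DYSF rows in 2 groups of 7 with different starts, at 71680753 and 71693832 on chromosome 2 (hg19, plus strand). The rows differed by at most 5.69% within a library, so the starts cannot be told apart. The row used here runs from 71693832 to 71913892. Per kilobase of transcript, the level of MYOF was 5.84 times that of DYSF in siSET and 19.9 times in siCIP2A, against 30.7 times in siNT. It was 23.3 times in OP449, against 26.5 times in PBS. The other ferlin genes in the table were near 0: OTOF, needed in hair cells of the ear, was at 0 reads in every library, and FER1L5 reached at most 4 reads in any.

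The EHD genes of the set lay within 2-fold of siNT in siSET, unlike MYOF, and stood on both sides of it. EHD1, which drives exit from the recycling endosome, stood at 4301 scaled counts in siSET, 4495 in siCIP2A, 5646 in siNT, 3873 in OP449 and 3876 in PBS. The siNT library was the highest, and both targeting siRNAs lay between siNT and PBS. In siSET it was 1.31-fold below siNT, at -0.39 [-0.46 to -0.32], but 1.11-fold above PBS, at 0.15 [0.08 to 0.22]. In siCIP2A it was likewise at -0.33 [-0.39 to -0.27] against siNT and at 0.21 [0.15 to 0.28] against PBS. The controls themselves differed, with siNT at 0.54 [0.48 to 0.61] against PBS, so the sign of the EHD1 difference depends on the control. OP449 stood at -0.00 [-0.07 to 0.07] against PBS. EHD1 spans chromosome 11 from 64620208 to 64646191 (hg19, minus strand).

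EHD2, which sits at the neck of caveolae, stood at 4280 in siSET, 3553 in siCIP2A, 3945 in siNT, 3266 in OP449 and 3414 in PBS. Here siSET was the highest library, and the range over the 5 was 1.31-fold. In siSET it was at 0.12 [0.04 to 0.19] against siNT and at 0.33 [0.25 to 0.40] against PBS. The siCIP2A library was at -0.15 [-0.22 to -0.08] against siNT and at 0.06 [-0.01 to 0.13] against PBS. OP449 stood at -0.06 [-0.14 to 0.01] against PBS. The gene spans chromosome 19 from 48216601 to 48246390 (hg19, plus strand).

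EHD4, an endosomal relative of EHD1, stood at 1138 in siSET, 1505 in siCIP2A, 1611 in siNT, 1187 in OP449 and 1516 in PBS. The siSET and OP449 libraries were the lowest and did not differ beyond counting error, while siNT, PBS and siCIP2A lay close together above them. In siSET it was 1.42-fold below siNT, at -0.50 [-0.64 to -0.37], and 1.33-fold below PBS, at -0.41 [-0.55 to -0.28]. In OP449 it was 1.28-fold below PBS, at -0.35 [-0.48 to -0.23]. MYOF, EHD4 and S100A10 were the members lowest in siSET, where the next lowest library stood 2.96-fold, 1.04-fold and 1.09-fold above it. The gene spans chromosome 15 from 42191641 to 42264755 (hg19, minus strand). The remaining relative, EHD3, was no member of the set and was low, at 156 in siSET, 82.8 in siCIP2A, 78.2 in siNT, 72.1 in OP449 and 71.4 in PBS. Its log2 fold in siSET against siNT was 0.98 [0.52 to 1.47], from 91 and 66 reads, and against PBS it was 1.11 [0.64 to 1.61], past 2-fold. Against siCIP2A it was 0.90 [0.45 to 1.37].

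ANXA2 encodes annexin A2, a calcium-dependent membrane binder that forms a tetramer with S100A10. It stood at 7506 scaled counts in siSET, 7721 in siCIP2A, 6348 in siNT, 7311 in OP449 and 7511 in PBS. The siNT library was low and the other 4 lay within 1.06-fold. In siSET it was at 0.24 [0.18 to 0.30] against siNT but at -0.00 [-0.06 to 0.05] against PBS. The siCIP2A library was at 0.28 [0.23 to 0.33] against siNT and at 0.04 [-0.01 to 0.09] against PBS. OP449 stood at -0.04 [-0.09 to 0.01] against PBS. The 4 rows of ANXA2 differed by at most 2.79%. The human genome holds processed copies of ANXA2, and the counting of reads shared with them is not stated in the sources, so its level is uncertain. The row used spans chromosome 15 from 60639352 to 60690185 (hg19, minus strand).

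S100A10, an S100 protein that does not bind calcium and holds annexin A2 in its tetramer, stood at 4549 in siSET, 4971 in siCIP2A, 5081 in siNT, 6136 in OP449 and 5096 in PBS. OP449 was the highest library, 1.20-fold above PBS at 0.27 [0.21 to 0.33]. The siSET library was the lowest, at -0.16 [-0.23 to -0.09] against siNT. In siCIP2A it was at -0.03 [-0.09 to 0.03]. S100A11, a calcium-binding partner of annexins, stood at 4978 in siSET, 5878 in siCIP2A, 4563 in siNT, 4536 in OP449 and 4606 in PBS. Its highest level, in siCIP2A, exceeded that in siNT 1.29-fold, at 0.37 [0.31 to 0.43], and siSET was at 0.13 [0.06 to 0.20]. OP449 was at -0.02 [-0.09 to 0.04] against PBS. These S100 genes lie 38.3 kb apart on chromosome 1 (hg19, minus strand), S100A10 from 151955387 to 151966714 and S100A11 from 152004983 to 152009511.

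PTRF, now named CAVIN1, encodes the coat protein of caveolae. It stood at 12125 scaled counts in siSET, 10396 in siCIP2A, 7433 in siNT, 10998 in OP449 and 11699 in PBS. The siNT library was the lowest and the other 4 lay together within 1.17-fold. In siSET it was 1.63-fold above siNT, at 0.71 [0.66 to 0.76], but at 0.05 [0.01 to 0.10] against PBS. The siCIP2A library was above siNT too, at 0.48 [0.44 to 0.53], and at -0.17 [-0.21 to -0.13] against PBS. The siNT library was 1.57-fold below PBS, at -0.65 [-0.70 to -0.61]. OP449 stood at -0.09 [-0.13 to -0.05] against PBS. PTRF spans chromosome 17 from 40554469 to 40575338 (hg19, minus strand).

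**Figure D3:**
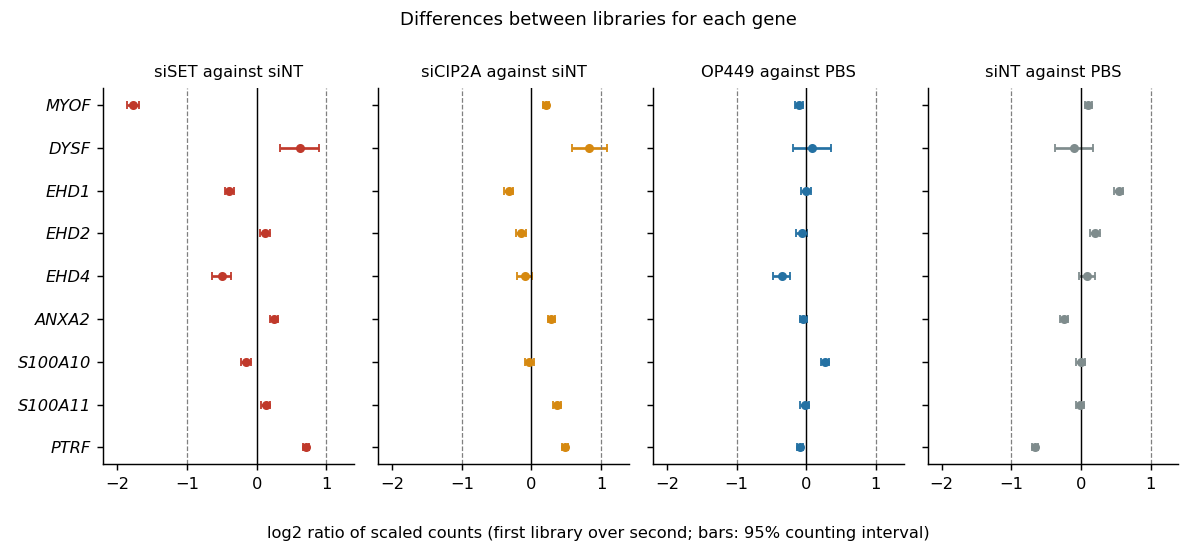
Log2 ratio of scaled counts for each of the 9 genes (rows) in 4 comparisons (panels), first library over second, with 95% counting intervals as bars and dashed lines at 2-fold. MYOF in siSET against siNT, with an interval of [-1.86 to -1.69], is the only point beyond a dashed line.

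Counted over the set, 1 of the 9 genes was at least 2-fold apart in siSET against siNT, where 1.18% of 6084 genes were, and 3 were at least 1.5-fold apart (MYOF, DYSF and PTRF), where 7.15% were. In siCIP2A against siNT, 0 were at least 2-fold apart, where 1.11% of 6102 genes were, and DYSF was at least 1.5-fold apart, where 6.08% were. In OP449 against PBS, 0 reached either threshold, where 0.591% and 3.76% of 6096 genes did. In siNT against PBS, 0 were at least 2-fold apart, where 0.395% of 6076 genes were, and PTRF was at least 1.5-fold apart, where 3.03% were. Between siSET and siCIP2A, MYOF was at least 2-fold apart and no other member reached 1.5-fold, where 8.33% of genes did. Since the set was chosen with these ratios known, the shares are given beside the counts and nothing is read from them.

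The counting interval left out equality for 9 of the 9 genes in siSET against siNT, 7 in siCIP2A against siNT, 4 in OP449 against PBS, 5 in siNT against PBS and 6 between siSET and siCIP2A. Over all genes past the floor the shares were 39.5%, 41.5%, 36.2%, 35.4% and 41.4%. These shares were not matched for read number, on which the width of an interval depends, so they cannot be compared with the counts. In siSET against siNT, EHD2 at 0.12 and S100A11 at 0.13 were counted although 64.2% and 62.2% of genes had larger folds. The median log2 fold of the 9 was 0.12 in siSET against siNT, with 5 higher and 4 lower, beside 0.01 over all genes. It was 0.21 in siCIP2A against siNT, beside 0.02, and -0.04 in OP449 against PBS, beside 0.02. The genes thus stood on both sides of the control in each comparison.

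With PBS in place of siNT, MYOF, DYSF and EHD4 stood within 0.11 of their log2 folds in siSET, as did S100A10 and S100A11. The values of EHD1 and ANXA2 changed sign there and PTRF came to 0.05. In siCIP2A, EHD1, EHD2 and PTRF changed sign. The controls differ in time as well as in treatment, and these causes cannot be told apart.

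**Figure D4:**
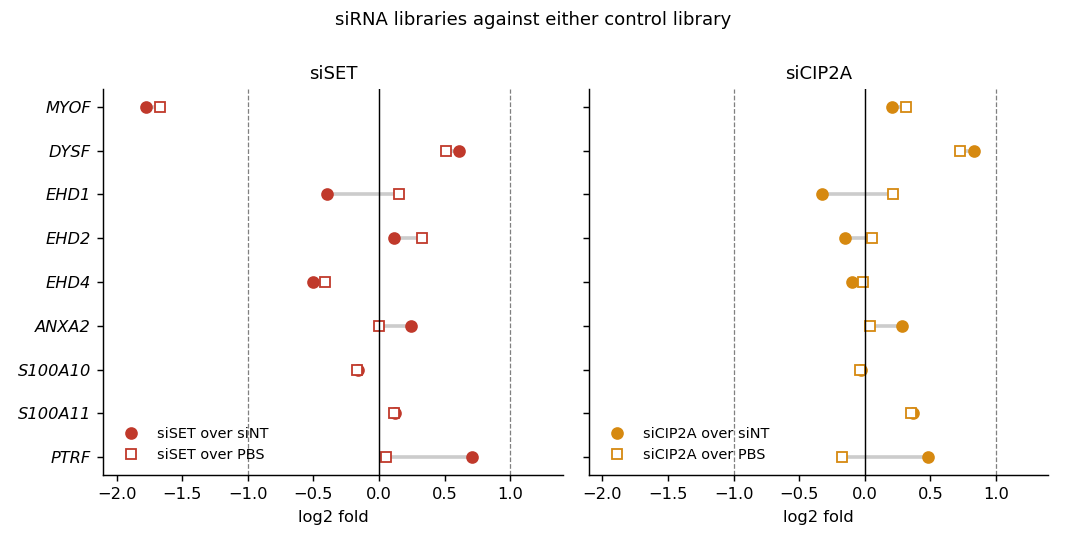
Log2 folds of the 9 genes (rows) in siSET (left) and siCIP2A (right) against siNT (filled circles) and against PBS (open squares), joined by grey lines. MYOF stood at -1.78 and -1.67 in siSET, whereas PTRF stood at 0.71 and 0.05.

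Per kilobase of transcript, the mean level over the 5 libraries was highest for S100A11, at 8269 scaled counts, then ANXA2 at 5041, S100A10 at 4298 and PTRF at 2751. EHD2, MYOF and EHD1 lay close together at 1030, 982 and 975. EHD4 stood at 217 and DYSF at 49.2. Lengths came from GENCODE transcripts for all 9 accessions, and priming with oligo-dT can favour the 3′ ends of long transcripts such as MYOF and DYSF, which was not tested. In spread over the 5 libraries, by the SD of log2 values, MYOF at 0.80 ranked 20 of 6093 genes. DYSF followed at 0.36 and PTRF at 0.28, then EHD4 at 0.23 and EHD1 at 0.22. EHD2, S100A11 and S100A10 were at 0.16 and ANXA2 at 0.11, beside a median of 0.17 over all genes.

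The genes whose pattern over the 5 libraries lay nearest to MYOF were named by the root mean square distance of log2 values, each centred on its own mean, among 6092 other genes. In order they were C14orf49 (now SYNE3, a nesprin of the nuclear envelope) at 0.16, the transcription factor gene TFAP2E at 0.18 and KIAA0494 (now EFCAB14) at 0.21. FAM96A (now CIAO2A, of cytosolic iron-sulfur assembly) followed at 0.24 and MTFMT, the mitochondrial methionyl-tRNA formyltransferase gene, at 0.28. KIAA0494 was the best covered, at 643 scaled counts in siSET, 1855 in siCIP2A, 1570 in siNT, 1400 in OP449 and 1340 in PBS. FAM96A stood at 180 in siSET, 496 in siCIP2A, 450 in siNT, 557 in OP449 and 532 in PBS. C14orf49, TFAP2E and MTFMT had 21, 11 and 25 reads in siSET, so their patterns are less certain. No membrane repair gene was among the 5. Within 0.1 of MYOF lay 0 genes, whereas 7 lay that near to DYSF, 27 to PTRF and 666 to ANXA2. The values were centred but not scaled, and the SDs of these genes were 0.80, 0.36, 0.28 and 0.11. The counts thus follow the spread of each gene and do not tell how far its pattern is shared. Between members, the nearest pair was ANXA2 and S100A11, at 0.12. EHD1 lay 0.17 from EHD2 and 0.20 from EHD4, while EHD2 and EHD4 were 0.27 apart. The member nearest to MYOF was EHD4, at 0.58.

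**Figure D5:**
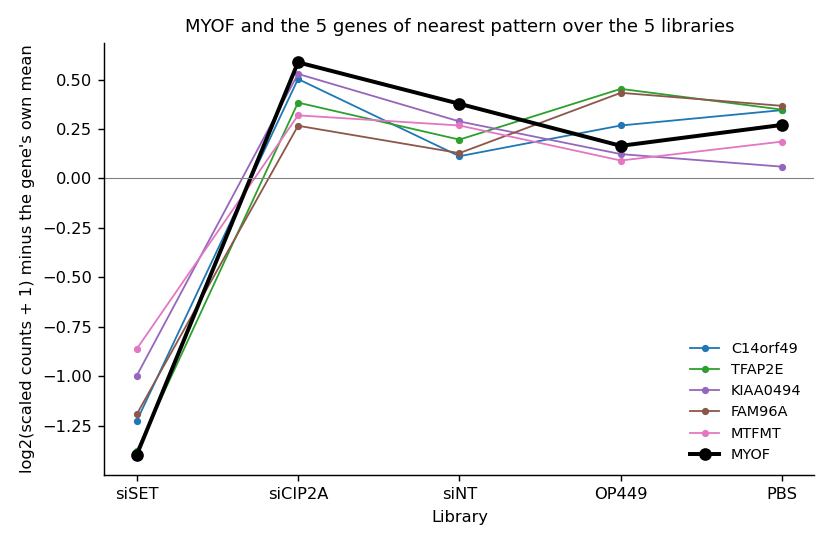
Log2(scaled counts + 1) minus each gene's own mean (vertical axis) over the 5 libraries for MYOF (black) and the 5 genes of nearest pattern (colours). All 6 are lowest in siSET, and distances from MYOF run from 0.16 for C14orf49 to 0.28 for MTFMT.

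The wider machinery of membrane repair was read from lists of relatives and partners, with the 9 genes left out. Of 123 listed genes, 86 were in the table, and 60 passed the floor in siSET against siNT. Of these 60, 33 were higher and 27 lower, with a median of 0.02 beside 0.01 over all genes. At least 2-fold apart were 0, and 4 were at least 1.5-fold apart, where 1.18% and 7.15% of 6084 genes were. Against PBS, 40 of 60 were higher and 20 lower, with a median of 0.06, and EHD3 was at least 2-fold apart, where 0.657% of 6084 genes were. The 4 in siSET against siNT were EHD3, above, with AHNAK2, CHMP4A and SNAP23. CHMP4A, an ESCRT-III subunit, stood at 204 scaled counts in siSET against 329 in siNT, at -0.69 [-1.02 to -0.38]. SNAP23, a SNARE of the plasma membrane, stood at 948 in siSET against 607 in siNT, at 0.64 [0.47 to 0.82].

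The lists below include members. In siSET the 4 EHD genes were 2 higher and 2 lower against siNT, with a median of -0.14. Against PBS they were 3 higher and 1 lower, with a median of 0.24. The 2 caveolar genes past the floor were 1 higher (PTRF) and 1 lower (PRKCDBP) against either control. Their median was 0.26 against siNT but -0.25 against PBS. The 2 ferlins past the floor were 1 higher (DYSF) and 1 lower (MYOF) against either control. Their median of -0.58 against either control lies between these opposite values. All 4 annexins past the floor were higher in siSET and in siCIP2A than in siNT, with medians of 0.21 and 0.23. Against PBS the medians were 0.11 in both, with 3 higher and 1 lower in siSET (ANXA2 at -0.00) and 4 higher in siCIP2A. Against siNT, ANXA4 stood at 0.27 in siSET and at 0.51 [0.37 to 0.67] in siCIP2A. Of the 8 S100 genes past the floor, 6 were higher and 2 lower in siSET than in siNT, with a median of 0.12, and against PBS 5 were higher and 3 lower, with a median of 0.09. In OP449 against PBS, 2 were higher and 6 lower, with a median of -0.25 beside 0.02 over all genes. S100A2 stood at -0.49, S100A4, a protein linked to metastasis, at -0.43 and S100A6 at -0.28, while S100A10 was the highest at 0.27. EHD partners and recycling endosome genes numbered 14 past the floor in siSET, 8 higher and 6 lower against siNT, with a median of 0.01 and none past 1.5-fold, and 7 higher and 7 lower against PBS, with a median of -0.01. NUMB, an endocytic adaptor, was the farthest, at -0.46 [-0.61 to -0.31]. For the ESCRT and exocytosis lists the side with more genes depended on the control. In siSET, ESCRT genes were 5 higher and 7 lower against siNT, with a median of -0.10, but 7 higher and 5 lower against PBS, with a median of 0.03. Genes of exocytosis at the plasma membrane were 7 higher and 9 lower against siNT, with a median of -0.06, but 12 higher and 4 lower against PBS, with a median of 0.12. Calpains and AHNAK genes were 4 higher and 3 lower against siNT, with a median of 0.02, and 6 higher and 1 lower against PBS, with a median of 0.04. PRKCDBP, the other caveolar coat gene measured, stood at 821 scaled counts in siSET, 792 in siCIP2A, 940 in siNT, 881 in OP449 and 1208 in PBS, and so was lower than PBS in all 4 others. TRIM72, a repair protein of muscle, was at 0 reads in every library.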

How the data were processed

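Total RNA was reverse transcribed with oligo-dT and sequenced on an Illumina GAII, per the labels' protocols. The deposited values are a signal, called scaled counts: reads per RefSeq transcript that the authors had put on a common scale. The submitters' processing notes name hg19, CASAVA and Bowtie 1.0.0, with no step for each. How reads were counted, whether by strand, and how they were scaled is not stated. Dividing each library by its smallest nonzero value gave whole reads for 100% of values, within 0.001 reads. The table used here held 16383 rows, from chromosomes 1 and 10 to 19 and from chromosome 2 up to 166.5 Mb, with a few unplaced or alternate contigs of these chromosomes, so SET, CIP2A, MYC and repair genes elsewhere (CAV1 and ANXA1 among them) were not analysed here and silencing could not be checked. Transcript positions are counted from 1. Symbols of 15 rows turned into dates were restored by accession.

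A fold was called at 2 among genes with a mean of at least 50 scaled counts over the libraries compared. Intervals of ratios are exact Clopper-Pearson intervals of the recovered reads at 95%, and those of levels exact Poisson. No molecular identifiers are mentioned in the protocols, so both cover counting error only. As each group is 1 library, conditions were not tested against each other. Members, gene lists, markers and the rule for named genes were chosen with earlier results of these data known. Named were all 9 members, from each list up to 4 genes with the largest folds in siSET against siNT, and the 5 genes nearest to MYOF in pattern. S100A6, TRIM72, OTOF and FER1L5 were named after their values were seen, and 1 item is not reported here. Promoter windows came from RefSeq (GRCh38.p14) and transcript lengths from GENCODE 29. The scripts were tested on simulated data. Python 3.11.15, pandas 2.3.3 and SciPy 1.17.1 were used. Alternatives were floors of 20 and 200 and none, a 1.5-fold threshold, a pseudocount of 10, other scalings, summed transcript rows and PBS as control. An exact binomial test of the reads was added after seeing the data.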

Additional observations from a re-analysis of the deposited data

How the results depend on the processing

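No paired analysis was possible because there was 1 library per group. MYOF in siSET kept its direction and its 2-fold difference under every alternative run, at -1.67 with PBS as the control. A pseudocount of 10, 3 other scalings and summed transcript rows moved no member's log2 fold in the 4 comparisons with a control by over 0.03, and sign changes under other scalings were limited to values within 0.03 of 0 (EHD1 and S100A11 in OP449, S100A10 in siNT). The count of genes at least 2-fold apart depended on the floor and threshold. In siSET against siNT it was 72, with 115 at a floor of 20, 32 at a floor of 200, 954 with no floor, 435 at 1.5-fold and 40 against PBS. In siCIP2A against siNT it was 68, with 110, 27, 877 and 371 under the first 4 of these. In OP449 against PBS it was 36, with 71, 14, 780 and 229. In siNT against PBS it was 24, with 51, 6, 813 and 184, and 15 at a pseudocount of 10. The cause of that last change was not tested. An exact binomial test of the reads with Benjamini-Hochberg adjustment at 0.05, which compares libraries and not conditions, called 1801, 2021, 1616 and 1581 genes in the same order. Depth limits DYSF most among the members, with 212 to 405 reads a library.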

Other observations

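Of the 62 listed relatives past the floor in siCIP2A against siNT, 1 was at least 2-fold apart, where 1.11% of 6102 genes were. This was AHNAK2, a giant relative of the dysferlin partner AHNAK. It stood at 1463 scaled counts in siSET, 4814 in siCIP2A, 2261 in siNT, 2168 in OP449 and 1442 in PBS. Its log2 fold was -0.63 [-0.75 to -0.51] in siSET and 1.09 [1.01 to 1.17] in siCIP2A, both against siNT. It was 0.59 [0.48 to 0.69] in OP449 against PBS. AHNAK itself was far more even, at 38512 scaled counts in siSET, 42135 in siCIP2A, 34790 in siNT, 32781 in OP449 and 32090 in PBS. The siNT library stood above PBS for AHNAK2, at 0.65 [0.55 to 0.75], so siSET was close to PBS and siCIP2A above both controls.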
